A study of Saccharomyces cerevisiae with 4 samples.

Results

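The 10 small nucleolar RNAs (snoRNAs) described here are the box C/D guides SNR78, SNR67, SNR68, SNR51, SNR48, SNR38, SNR52, SNR71, SNR69 and SNR73 of Saccharomyces cerevisiae. They were chosen because each directs a 2′-O-methylation in 25S rRNA at nucleotide 2421 or further towards the 3′ end. This rule uses no measured value, although earlier results of these data were known when it was set. They are 10 of the 77 entries in the deposited snoRNA values, which are called the listed snoRNAs here. Among these entries, NME1 was assigned to neither the box C/D nor the H/ACA class, but it is counted in values over all listed snoRNAs. Together the 10 guides are assigned 12 methylated nucleotides in this region of 25S, which is 3396 nucleotides long. The base at all 12 positions of the deposited 25S sequence was the one each assignment requires. Cross-linking was analysed in 4 libraries, 2 from each strain. The wild-type (WT) strain was BY4741 without a tagged protein, and the other strain was BY4741 expressing the RNA helicase Dbp7 from its own locus with a C-terminal His-TEV-ProtA (HTP) tag. Both strains were grown with 4-thiouracil and irradiated at 365 nm, and RNA fragments bound to the purified protein were sequenced, a method called PAR-CRAC. The untagged libraries hold the background RNA of the purification and no bait protein, so they are a control for the purification and not for the function of Dbp7.

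A box C/D snoRNA pairs with rRNA through an antisense stretch next to its box D or D′, and the methyltransferase Nop1 (fibrillarin in humans), which it carries together with Nop56, Nop58 and Snu13, places a methyl group on the rRNA nucleotide at a fixed distance from that box. The 3′ region of 25S holds domain V, which forms the peptidyl transferase centre, and domain VI, which carries the sarcin-ricin loop. Methylation there takes place while the large subunit precursor is being assembled in the nucleolus, and RNA helicases are known to act on snoRNA pairing with precursor rRNA. DBP7 encodes a DEAD-box helicase of early large subunit assembly.

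The 25S stretches around the 12 targets are printed because every later value refers to one of them. They run 5′ to 3′ as RNA, are given with their positions counted from the 5′ end of 25S, and come from the deposited rRNA sequence, with the methylated nucleotide in capitals. The rDNA repeats lie on chromosome XII.
SNR78 target, 2411 to 2431: ugagcuugacUcuaguuugac
SNR67 first target, 2609 to 2629: aguuuggcugGggcggcacau
SNR68 target, 2630 to 2650: cuguuaaacgAuaacgcagau
SNR67 second target and then SNR51 target, 2714 to 2739: gauuuugauuUucagUgugaauacaa
SNR48 pair of targets, 2781 to 2803: uuugaggcuaGaGgugccagaaa
SNR38 target, 2805 to 2825: guuaccacagGgauaacuggc
SNR52 target, 2911 to 2931: agcguuggauUguucacccac
SNR71, SNR69 and SNR73 targets, 2936 to 2969: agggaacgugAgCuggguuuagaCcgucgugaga
SNR67 has targets at 2619 and 2724, and SNR48 has targets at 2791 and 2793. The second target of SNR67 lies 5 nucleotides before the target of SNR51 at 2729. The targets of SNR71 at 2946 and SNR69 at 2948 are 2 nucleotides apart, and that of SNR73 at 2959 follows 11 nucleotides after SNR69's. The stretch for SNR52 holds the A loop, which binds the acceptor end of transfer RNA in the ribosome. SNR51 and SNR52 each also guide a methylation of 18S rRNA.

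The libraries differed in depth and in background. Mapped reads numbered 467529 in WT replicate 2 and 730583 in Dbp7-HTP replicate 2, the libraries whose totals are stated, and were estimated at 159127 and 1214217 in WT and Dbp7-HTP replicate 1. Values in reads per 1000000 mapped reads (RPM) use these totals. rRNA made up 401067 and 326221 RPM in WT replicates 1 and 2 but 722347 and 700544 RPM in Dbp7-HTP replicates 1 and 2. The snoRNA class was at 26496 RPM in WT replicate 1 and at 9186 RPM in WT replicate 2, against 11514 and 11942 RPM in the Dbp7-HTP libraries, so the WT libraries lay on both sides of the Dbp7-HTP libraries. Values for single snoRNAs come from the replicate 2 libraries, 1 per strain. No test between strains was therefore made for the snoRNAs, and the intervals given with their ratios are exact (Clopper-Pearson) 95% intervals that cover counting error only, since amplified reads are not independent molecules.

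Of the 10 guides, SNR73 had the highest ratio of RPM with Dbp7-HTP over WT and SNR78 the lowest. Ordered by their targets from 5′ to 3′, the guides fell on both sides of a ratio of 1. The 4 whose targets come before those of SNR48 (SNR78, SNR67, SNR68 and SNR51) had ratios from 0.278 to 0.756, with a median of 0.312. The 6 from SNR48 on (SNR48, SNR38, SNR52, SNR71, SNR69 and SNR73) had ratios from 1.23 to 4.30, with a median of 1.45. This division by position was noticed in the values and is a description of 2 libraries without a test.

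SNR73, which guides methylation of C2959, stood at 62 RPM in WT and 266 RPM with Dbp7-HTP, from 29 and 195 reads. Its ratio was 4.30 with an interval from 2.90 to 6.60, the third highest among the 75 snoRNAs with at least 10 reads over both libraries. SNR71, the guide for A2946, stood at 224 RPM in WT and 380 RPM with Dbp7-HTP, from 105 and 278 reads, a ratio of 1.69 (1.35 to 2.14). These were the guides of the 10 whose interval lay above 1. SNR69, whose target C2948 lies between those of SNR71 and SNR73, stood at 51 RPM in WT and 62 RPM with Dbp7-HTP, a ratio of 1.23 (0.733 to 2.10). Within this trio of close targets the ratio of SNR73 was 3.51 times that of SNR69 (1.77 to 6.87) and 2.54 times that of SNR71 (1.59 to 4.13). SNR71 and SNR69 could not be separated at this depth, with a quotient of 1.38 (0.766 to 2.44). Quotients of this kind compare reads within the same libraries and do not depend on the library totals.

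The 3 guides between SNR51 and SNR71 along 25S had ratios above 1 with intervals that reached below it. SNR48, which directs methylation of G2791 and G2793, stood at 151 RPM in WT and 194 RPM with Dbp7-HTP, a ratio of 1.28 (0.956 to 1.73). SNR52, the guide for U2921 of the A loop, stood at 113 RPM in WT and 154 RPM with Dbp7-HTP, a ratio of 1.36 (0.976 to 1.93). SNR38, the guide for G2815, stood at 21 RPM in WT and 32 RPM with Dbp7-HTP, from 10 and 24 reads, a ratio of 1.54 (0.708 to 3.60). At this depth the levels of these guides in the 2 libraries could not be told apart.

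Among the guides with targets further 5′, SNR78, SNR67 and SNR51 were lower with Dbp7-HTP than in WT by more than 2-fold. SNR78, the guide for U2421, stood at 49 RPM in WT and 13 RPM with Dbp7-HTP, from 23 and 10 reads, a ratio of 0.278 (0.118 to 0.608). SNR67, the guide for G2619 and U2724, stood at 57 RPM in WT and 16 RPM with Dbp7-HTP, from 27 and 12 reads, a ratio of 0.284 (0.131 to 0.581). SNR51, the guide for U2729, stood at 72 RPM in WT and 24 RPM with Dbp7-HTP, from 34 and 18 reads, a ratio of 0.339 (0.180 to 0.617). SNR67 and SNR51, with neighbouring targets, could not be separated, with a quotient of 0.840 (0.311 to 2.22). SNR68, the guide for A2640, stood at 23 RPM in WT and 17 RPM with Dbp7-HTP, from 11 and 13 reads, and its ratio of 0.756 (0.313 to 1.86) left the direction undecided.

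**Figure D1:**
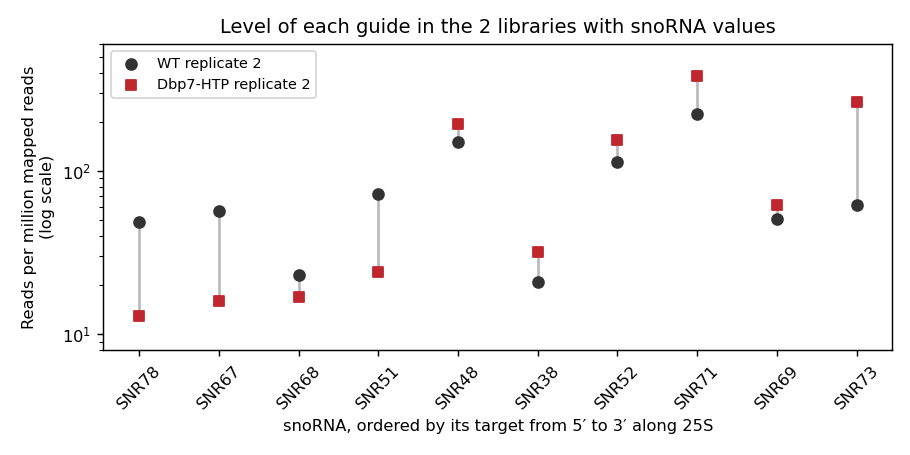
Level of each of the 10 guides in WT replicate 2 (dark circles) and Dbp7-HTP replicate 2 (red squares), in RPM on a log axis, ordered by target position and joined by a grey line. SNR78, SNR67, SNR68 and SNR51 lie lower with Dbp7-HTP, the other 6 lie higher, and the longest upward step is that of SNR73, from 62 to 266 RPM.

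The level of 1 against which these ratios were read depends on what the libraries are scaled to, and rRNA took a larger share of the Dbp7-HTP library. Scaling to the reads outside rRNA multiplied every ratio by 2.25, put the interval of 6 guides above 1 and of none below it, and left SNR78 as low as 0.626. Scaling to the sum of the listed snoRNA reads multiplied every ratio by 0.769, and SNR48 and SNR69 then came to lie under 1, so that 4 guides were above it. A single snoRNA, SNR190, accounted for 4425 of the 8725 snoRNA reads with Dbp7-HTP and for 236 of 4295 in WT. Without SNR190 in that sum the factor was 1.48, and 7 guides were above 1. The order of the 10 guides is the same under each of these scalings, since each multiplies all ratios by 1 number.

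Beside the other listed snoRNAs, the 10 guides were not set apart as a group by the number past 2-fold. A ratio above 2 was found for 1 of the 10 and for 12% of the 75 snoRNAs with at least 10 reads. A ratio under 0.5 was found for 3 of the 10 and for 36% of the 75, and a ratio above 1 for 6 of the 10 and 40% of the 75. The median ratio of the 10 was 1.25, against 0.730 over all 75. The closest comparison is with the 20 other box C/D guides of 25S, whose targets lie 5′ of position 2420. Of those 20, none had a ratio above 2, 2 had a ratio above 1 and 10 had a ratio under 0.5, and their median was 0.548, in a range from 0.145 to 1.28. The 11 measured box C/D guides that act on 18S alone had a median of 0.311 and none above 1. The 28 measured H/ACA snoRNAs, a class of which most guide pseudouridylation, had a median of 1.35 with 7 above 2. Summed, the 10 guides had 387 reads in WT and 851 with Dbp7-HTP, a ratio of 1.41 (1.25 to 1.59), while the 20 other guides of 25S had 1575 and 1027 reads, a ratio of 0.417 (0.385 to 0.452). As a share of all listed snoRNA reads the 10 made up 9.01% in WT (Wilson 95% interval 8.19 to 9.90) and 9.75% with Dbp7-HTP (9.15 to 10.4). With SNR190 left out of the total these shares were 9.53% (8.67 to 10.5) and 19.8% (18.6 to 21.01).

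The 6 guides from SNR48 on carried most of these reads, 292 in WT and 798 with Dbp7-HTP, a ratio of 1.75 (1.53 to 2.01). SNR78, SNR67, SNR68 and SNR51 together had 95 and 53 reads, a ratio of 0.357 (0.250 to 0.505), which is closer to that of the 20 guides further 5′. Because the guides were divided where their ratios cross 1, sums on either side of 1 were assured. The intervals do not allow for that choice. Directly across the boundary of the choice, SNR66, the guide for position 2417, had a ratio of 0.172 (0.0882 to 0.315), and SNR78, 4 nucleotides further along, had 0.278. Over the 10 guides the log2 ratio and the position of the first target had a Pearson r of 0.836 and a Spearman rho of 0.855. Over the 20 other guides of 25S the same measures were -0.207 and -0.210. All points share the same pair of libraries and neighbouring targets are not independent, so these coefficients describe the plotted values and carry no p.

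**Figure D2:**
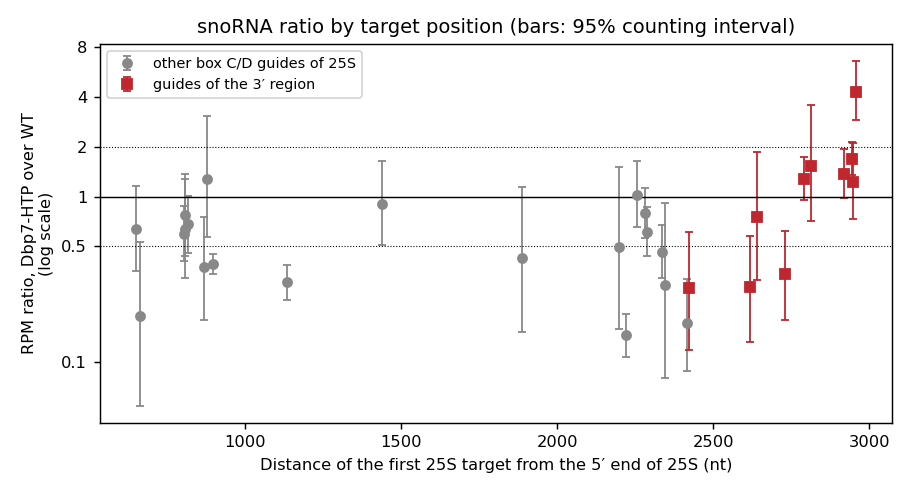
Ratio of RPM with Dbp7-HTP over WT (log axis) for the 10 guides of the 3′ region (red squares) and the 20 other box C/D guides of 25S (grey circles), by the distance of the first 25S target from the 5′ end of 25S in nucleotides. Bars are 95% counting intervals, the solid line marks a ratio of 1 and the dotted lines 2 and 0.5, and SNR73 at the far right, with a ratio of 4.30, is the 1 point above 2.

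Genes of several of these guides lie next to other snoRNA genes in the RefSeq gene table of assembly R64, in which all 10 were found. SNR78 and SNR73, the lowest and the highest of the 10, belong to 1 run of 7 adjacent snoRNA genes on chromosome XIII, SNR78, SNR77, SNR76, SNR75, SNR74, SNR73 and SNR72, which are known to be processed from a common precursor. The other 6 genes of this run had ratios from 0.278 to 1.28, all below that of SNR73. The ratio of SNR73 was 15.5 times that of SNR78 (6.23 to 39.7). As these are the extremes of the 10, a large quotient was assured, and the interval does not allow for that choice. SNR51 lies beside SNR70 and SNR41 on chromosome XVI, whose ratios ranged from 0.150 to 0.414, similar in level to its own. SNR38 lies within TEF4, a translation elongation factor gene, on chromosome XI, and SNR68, SNR48, SNR52, SNR71 and SNR69 have no adjacent snoRNA gene. Position in the same run thus went with unlike ratios for SNR78 and SNR73.

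The second measurement was the coverage of the 12 targets themselves, the number of reads that span each nucleotide of the 35S pre-rRNA, which is available in all 4 libraries. Coverage was higher with Dbp7-HTP at all 12 targets, by 5.11-fold at U2729 (SNR51) to 15.9-fold at U2421 (SNR78), and at each the 2 strains did not overlap. In a limma fit on log2(RPM + 1) over the 6603 nucleotides of the 35S pre-rRNA with a mean of at least 10 RPM, all 12 passed a Benjamini-Hochberg adjusted p of 0.05, with values from 0.00459 to 0.0149. The fit called 15.4% of the nucleotides tested higher and, in 25S from the first target on, 57.1% of 976, so the region as a whole was high and a call at a target is the common case there. The median log2 difference was 2.78 at the targets, 2.06 over the 976 nucleotides and 0.163 over all nucleotides tested, and 74.7% of the 976 had strains that did not overlap. An exact permutation test of 2 against 2 libraries cannot give a two-sided p below 0.333, which was its value at each target. Leaving out either Dbp7-HTP library left 5 targets past the threshold (U2421, G2619, A2640, G2815 and U2921), while all 12 passed without either WT library. Each of these fits has 1 library in an arm, which is assumed to vary like the pair of the other strain, and at the targets that pair had an SD on the log2 scale of 0.20 to 0.66 in WT and 0.0083 to 0.17 with Dbp7-HTP, so the counts of 5 and 12 say little about stability. When coverage was taken as a share of all 35S coverage, all 12 were still called, with log2 differences from 1.52 to 3.13, although the median over all nucleotides then moved to -0.61 and 24.6% of the called nucleotides were higher, against 53.1% on the RPM scale.

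Coverage at the target of SNR78, U2421, was 138 and 207 RPM in WT and 2723 and 2701 RPM with Dbp7-HTP, a log2 difference of 3.99 (SE 0.47, limma adjusted p = 0.00459), the steepest step of the 12. At A2640, the target of SNR68, it was 107 and 83.4 RPM in WT and 1020 and 888 RPM with Dbp7-HTP, a log2 difference of 3.32 (adjusted p = 0.00593). A2640 thus had the lowest coverage of the 12 in both strains while its relative rise was among the larger ones. At G2619, the first target of SNR67, the values were 654 and 464 RPM in WT and 5389 and 4563 RPM with Dbp7-HTP, a log2 difference of 3.17 (adjusted p = 0.00683). Its second target, U2724, was at 798 and 488 RPM in WT and 3605 and 3813 RPM with Dbp7-HTP, a log2 difference of 2.57 (adjusted p = 0.0103). The 5′ target of this guide was thus the one with the higher coverage in the Dbp7-HTP libraries. U2729, the target of SNR51, was at 892 and 498 RPM in WT and 3211 and 3627 RPM with Dbp7-HTP, the smallest log2 difference of the 12 at 2.35 (adjusted p = 0.0149).

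Further 3′, both targets of SNR48 shared nearly the same reads, and G2791 was at 515 and 325 RPM in WT and 2852 and 2408 RPM with Dbp7-HTP, a log2 difference of 2.68 (adjusted p = 0.00914). G2815, the target of SNR38, was at 848 and 462 RPM in WT and at 6602 and 5648 RPM with Dbp7-HTP, a log2 difference of 3.28 (adjusted p = 0.00683). U2921, the A loop target of SNR52, was at 798 and 417 RPM in WT and 5576 and 5960 RPM with Dbp7-HTP, a log2 difference of 3.32 (adjusted p = 0.00683). In the Dbp7-HTP libraries G2815 and U2921 carried the highest mean coverage of the 12. A2946 and C2948, the targets of SNR71 and SNR69, again shared their reads, and A2946 was at 572 and 712 RPM in WT and 4646 and 4194 RPM with Dbp7-HTP, a log2 difference of 2.79 (adjusted p = 0.00688). C2959, the target of SNR73, was at 704 and 1012 RPM in WT and 5673 and 4923 RPM with Dbp7-HTP, a log2 difference of 2.65 (adjusted p = 0.00883). The target of the guide with the highest snoRNA ratio was therefore not the target with the largest coverage difference.

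**Figure D3:**
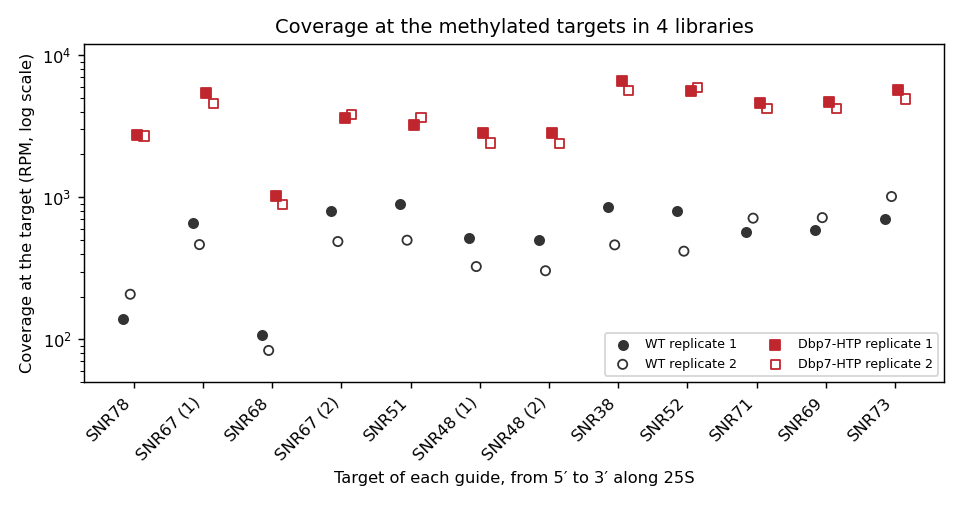
Coverage at the 12 methylated targets in RPM on a log axis, for WT replicates 1 and 2 (filled and open circles) and Dbp7-HTP replicates 1 and 2 (filled and open squares); numbers in parentheses tell apart the targets of 1 guide, and replicates are set side by side. At all 12 targets both Dbp7-HTP libraries lie above both WT libraries, from 5.11-fold at the target of SNR51 to 15.9-fold at that of SNR78.

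Across the 10 guides, the log2 ratio of the snoRNA and the log2 coverage ratio at its target (the mean over both for SNR67 and SNR48) in the same replicate 2 libraries had a Pearson r of -0.42 and a Spearman rho of -0.37, with the same library totals behind both measures, and no p is given. In these libraries SNR78, with the lowest snoRNA ratio of 0.278, had a log2 coverage ratio of 3.70, second to that of SNR52 at 3.83, and SNR73, with the highest snoRNA ratio of 4.30, had the lowest log2 coverage ratio, 2.28. The 24 targets of the other box C/D guides of 25S had a median log2 coverage difference of 1.01, in a range from -0.48 to 4.17, and 5 of them were called higher and 0 lower by the same fit. The highest was that of U2417, the SNR66 target close to U2421, with 132 and 231 RPM in WT and 3144 and 3173 RPM with Dbp7-HTP. It exceeded the difference at each target of the 10 guides.

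The targets did not sit on the summits of coverage. With Dbp7-HTP the 3 highest local maxima of mean 25S coverage were at positions 3156, 3294 and 2871, at 25381, 24652 and 21927 RPM. All 12 targets were nearest to the maximum at 2871. Coverage with Dbp7-HTP fell to 449 and 441 RPM at position 2637, a trough in which the target of SNR68 lies. This trough parts the first target of SNR67 at 2619 from the maximum. Further 5′, coverage fell lower, to 128 and 83.5 RPM at position 2484. The target of SNR78 at 2421 is thus parted from that of SNR67 as well. SNR38's target lay 56 nucleotides 5′ of the maximum at 2871 and SNR52's target 50 nucleotides 3′ of it. Those of SNR71, SNR69 and SNR73 lay at 75, 77 and 88 nucleotides on the 3′ side. The targets of SNR48 lay 80 and 78 nucleotides on the 5′ side, and those of SNR51, SNR67, SNR68 and SNR78 lay 142 to 450 nucleotides away on that side. On the RPM scale, the 4 guides with ratios under 1 were those with the targets farthest from this maximum. Guides with targets within 88 nucleotides on either side had ratios above 1. The intervals of SNR68, SNR48, SNR38, SNR52 and SNR69 included 1, and SNR48 and SNR69 lay under 1 when scaled to the listed snoRNA reads. This arrangement was noticed in the same values and was not tested. Coverage at the targets was 3.76% to 24.1% of the highest coverage in 25S. The summit at 3294 differed between the Dbp7-HTP libraries, at 16175 and 33128 RPM, while that at 2871 was at 21757 and 22096 RPM.

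**Figure D4:**
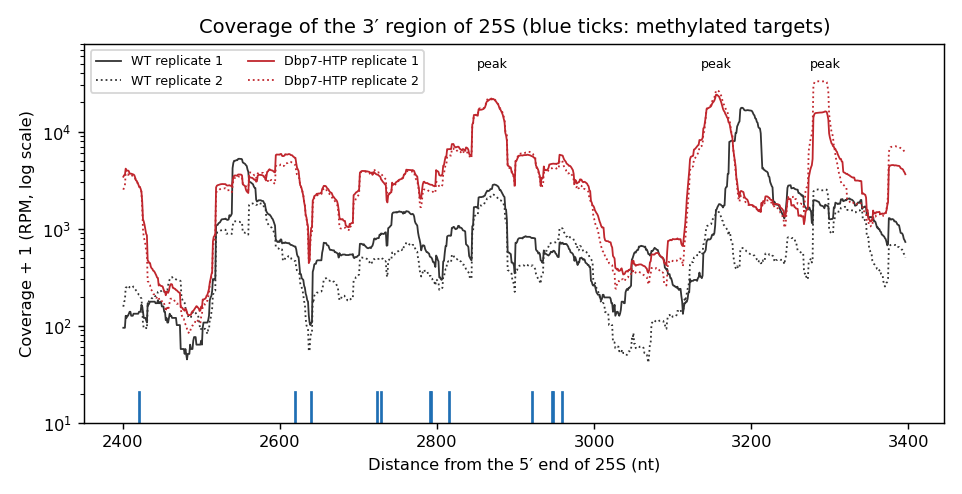
Coverage in RPM (plus 1, log axis) along the 3′ region of 25S, by distance from its 5′ end in nucleotides, in WT (dark) and Dbp7-HTP (red) libraries, replicate 1 solid and replicate 2 dotted. Blue ticks mark the 12 methylated targets and the word peak the 3 highest maxima with Dbp7-HTP, and none of the targets lies at 1 of these 3 summits.

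Substitutions were read last, since a cross-linked 4-thiouridine is read as C in place of T. The authors kept reads that held a T-to-C change, so substitutions in RPM rise with coverage and are not a separate measurement. They were found at T alone in 25S, which cannot be told apart from the effect of this filter. In the 21 nucleotides centred on each target, substitutions in RPM were higher with Dbp7-HTP at all 12. The log2 differences ran from 2.50 around A2640 (SNR68) to 4.05 around U2421 (SNR78). The median over the 12, taken within each library, was on average 3.34 higher with Dbp7-HTP on the log2 scale. Around U2421 substitutions were at 113 and 171 RPM in WT and 2406 and 2252 RPM with Dbp7-HTP. Around C2959 (SNR73) they were at 578 and 725 RPM in WT and 4619 and 4280 RPM with Dbp7-HTP. Divided by the coverage of the same nucleotides, this difference between medians was 0.237, so the difference was much smaller per covering read. Per covering read, the log2 differences at single targets had both signs, from -0.419 around A2640 to 0.694 around G2619. For substitutions in RPM, exact permutation p was 0.333 at each target, the smallest that 2 against 2 allows.

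At 4 of the 12 targets the methylated nucleotide is itself a uridine, where the share of covering reads with a substitution can be read at the methylated position. These shares are conditional on the filter, since each covering read was kept for a T-to-C change somewhere along it. At U2421 (SNR78) this share was 22.7% and 20.6% in WT, from 22 and 97 reads, and 8.11% and 6.69% with Dbp7-HTP, from 3306 and 1973 reads. The Wilson intervals were 10.1% to 43.4% and 13.8% to 29.7% in WT and 7.22% to 9.09% and 5.67% to 7.88% with Dbp7-HTP, which do not overlap between strains. Like the other Wilson intervals here, they cover counting error within a library and not the spread between libraries. In WT replicate 1 the share rests on 5 substituted reads. The target with the largest gain in coverage of the 12 was thus substituted in a smaller share of its reads with Dbp7-HTP. At U2724 (SNR67) the share was 0.787% and 1.75% in WT and 0.685% and 0.646% with Dbp7-HTP, low in every library. At U2729 (SNR51), 5 nucleotides further along, it was 9.15% and 21.5% in WT and 14.4% and 22.9% with Dbp7-HTP, so replicates of a strain differed by more than the strains did. At U2921 (SNR52) it was 15.7% and 11.8% in WT and 9.57% and 11.4% with Dbp7-HTP, with intervals that overlapped between strains in replicate 2 (7.99% to 17.1% and 10.5% to 12.3%) and not in replicate 1 (10.4% to 23.1% and 8.89% to 10.3%). For comparison, the median share over uridines of 25S from the first target on with at least 20 reads was 8.39% and 7.03% in WT and 6.32% and 6.56% with Dbp7-HTP. U2724 was thus far under this median in all 4 libraries and U2729 above it in all 4.

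**Figure D5:**
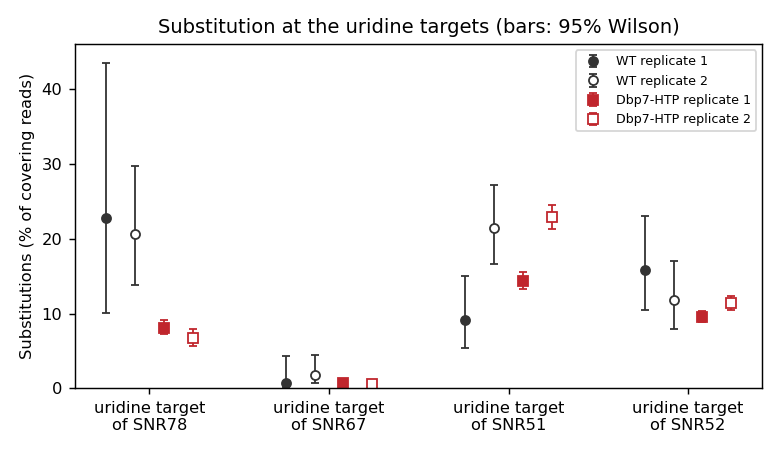
Share of covering reads with a substitution, in percent, at the 4 uridine targets of SNR78, SNR67, SNR51 and SNR52, for WT replicates 1 and 2 (filled and open circles) and Dbp7-HTP replicates 1 and 2 (filled and open squares), with Wilson 95% intervals as bars. The target of SNR78 stands out with 22.7% and 20.6% in WT against 8.11% and 6.69% with Dbp7-HTP, and the target of SNR67 lies under 2% in every library.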

How the data were processed

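PAR-CRAC reads of 4 libraries had been mapped by the authors with Bowtie 2 (version 2.2.4), kept where they held a T-to-C change and assigned with pyCRAC, and the genome release is not given in the sources used here. The deposited 35S values are a signal, the coverage of each nucleotide by reads, beside counts of substitutions. The deposited snoRNA and RNA class values are a score, RPM rounded down to whole numbers, available per snoRNA for replicate 2 of each strain. Other deposited files, the profiles along SNR190, were used for the read totals in their headers alone. With these totals, all 153 snoRNA values came out as whole reads. Totals of the first replicates were estimated from coverage per rRNA read of the other library of the strain. Ratios used the recovered reads, with Clopper-Pearson intervals, and limma (version 3.58.1, R 4.3.3) was run on log2(RPM + 1) after a test on simulated data. All 10 guides and 12 targets are named, and target assignments come from general knowledge of the yeast methylation map. The guides, their lists and the tests were chosen with earlier results of these data known. Replicate numbers come from the labels. The p-values measure the spread between these libraries. In limma this spread is estimated in part from all nucleotides tested together, as if they were independent, although neighbouring nucleotides share reads. The simulated data had independent noise at each nucleotide.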

Additional observations from a re-analysis of the deposited data

How the results depend on the processing

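The summed ratio of the 10 guides of 1.41 became 3.17 when scaled to reads outside rRNA, 1.08 when scaled to the listed snoRNA reads and 2.08 when scaled to those without SNR190. The count of guides above 2-fold moved from 1 to 6 with reads outside rRNA, 4 without SNR190 in the total, 3 at a fold limit of 1.5 and 2 with the unlabelled last column of the snoRNA values, an alternative chosen after seeing the data. The count below 0.5 moved from 3 to 0 with reads outside rRNA. The median log2 coverage difference at the targets was 2.78, and 1.94 as a share of the 35S coverage. Leaving out 1 library at a time gave medians from 2.70 to 3.05 and from 5 to 12 called targets. For substitutions, the log2 difference between strains in the per-library median over the targets was 3.34. It was 3.21 over 12 nucleotides and 0.237 as a share of the coverage. Scaled to the listed snoRNA reads, SNR48 and SNR69 came to lie under a ratio of 1, and SNR68 came to lie above 1 with reads outside rRNA or without SNR190. No coverage difference at a target changed sign under the settings tried.

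With the replicate number as a block, all 12 targets were called, with the median unchanged at 2.78, and 1388 nucleotides were called higher and 1196 lower, against 1014 and 897 without it. Deviations of same-numbered libraries had a correlation of 0.123 over 6603 nucleotides, with 2 pairs, and the numbers come from the labels alone. Over all nucleotides, leaving out the first Dbp7-HTP library gave 344 higher and 210 lower calls, and leaving out the second gave 290 higher and 86 lower. Omitting the first WT library gave 2107 higher and 1576 lower calls, and omitting the second gave 1418 higher and 1586 lower. SNR78, SNR68 and SNR38 rest on 33, 24 and 34 reads over both libraries, and no second library shows the spread of a snoRNA ratio.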
